A study of Mus musculus with 6 samples.

Results

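RNA that came down with GFP-tagged DAZL was compared with total input RNA across all genes measured, using 4 of the 6 arrays of the series: the 2 arrays of the GFP immunoprecipitation (GFP IP) and the 2 arrays of the input. The members were chosen by their labels alone, and every non-control probe of the arrays entered. The remaining 2 arrays hold RNA recovered with an antibody to the poly(A)-binding protein PABP1. The GFP IP was set against them below. They also helped to estimate the spread, to admit probes and to pick the probe of each gene in the comparison with input. Fitted without them on the same genes, 2747 genes were higher and 5703 lower against input, beside 2731 and 5565 with them.

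All 6 samples came from mouse embryonic stem cells derived from the V6.5 line, of mixed C57BL/6 and 129SV background, that carry Dazl fused to GFP and V5 (Dazl-GFP-V5). The cells were freed of feeders and kept in differentiation medium for 12 days, and the labels call the product in vitro primordial germ cells. Protein was crosslinked to RNA with ultraviolet light, the GFP IP used an anti-GFP antibody, and the input had no antibody. The input cells carry the same tagged allele, so the comparison does not contrast tagged with untagged cells. An IP from untagged cells or with an unspecific antibody is not analysed here. The labels do not say that the 2 samples of a group came from separate cultures, and so the p-values cover just the spread between such samples, which may be technical.

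DAZL is a germ-line RNA-binding protein that binds short motifs, many of them in the ends of messenger RNAs past the coding part, and influences translation and stability of the bound messages. It is required for germ cell development in the mouse. Crosslinking with ultraviolet light joins a protein to RNA it touches directly, and the IP then recovers that RNA together with whatever RNA sticks to the beads or antibody.

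Values are log2 of the background-subtracted signal relative to the 75th percentile of its array, so a value above 0 lies above that percentile. A difference is the GFP IP mean minus the input mean on this log2 scale, and the error after ± is the standard error from limma with 2 arrays per group. A gene was called at a Benjamini-Hochberg adjusted p under 0.05 in limma. Saturation touched 0 spots, and between 41.5% and 52.6% of the spots of an array were well above background. That percentile lay at 63.6 and 75.4 in the input and at 158 and 163 in the GFP IP. Both input arrays and GFP IP replicate 2 lay on the same slide, and GFP IP replicate 1 on another slide. The pair of GFP arrays differed more from each other than the pair of input arrays did, with a median SD per gene of 0.20 against 0.12.

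The label of the cells was checked against 10 germ cell markers. Of these, 8 were measured, 1 (Prdm14) was not found among the probe names, and Ddx4, a helicase of later germ cells, was on the array but not well above background on both input arrays. Kit, the receptor for stem cell factor, read 2.50 and 2.58 in the input and 5.22 and 5.80 with GFP (2.97 ± 0.24, adjusted p = 0.00162). Prdm1, a specifier of germ cell fate, read -0.81 and -1.28 in the input and 0.73 and 1.09 with GFP (1.95 ± 0.23, adjusted p = 0.00276). Dppa3 (1.48 ± 0.23), Tfap2c (1.06 ± 0.22) and Stra8 (0.77 ± 0.19) were also higher, while Nanos3 was lower (-1.25 ± 0.30, adjusted p = 0.0198). Dnd1 did not pass the threshold (0.54 ± 0.20, adjusted p = 0.0629) but did under 10 alternatives. In the input Dppa3 read 1.53 and 1.48, Tfap2c 3.48 and 3.28, and Stra8 2.68 and 2.49. Dnd1 read 1.94 and 1.79 there, and Nanos3 -2.16 and -2.43. With Dazl itself, 6 of the 8 were higher and 1 was lower, beside 18.2% higher and 37.1% lower over all genes tested. Stra8 lost its call under 5 alternatives. Tfap2c lost its call without input replicate 1 (adjusted p = 0.0546) or 2 (adjusted p = 0.0743). Nanos3 lost its call under 7 alternatives. Among them were quantile normalization (-0.80, adjusted p = 0.0603) and scaling on the median of all probes (-0.66, adjusted p = 0.0896). With scaling on spike-in probes it stood at -0.23 (adjusted p = 0.817). Without GFP IP replicate 1, input replicate 1 or input replicate 2 the Nanos3 difference was -1.13, -1.12 and -1.38. All 7 pluripotency markers were well above background in the input, as were 8 of 10 markers of cardiac and smooth muscle and 5 of 6 of fibroblasts. By the muscle and fibroblast markers, the cultures also hold RNA of other cell types. Of the 7 pluripotency markers, 4 were higher with GFP and 0 lower, beside the same shares of 18.2% and 37.1%. Only the input readings bear on which cells were present, because the differences compare the GFP IP with input from the same kind of culture. In such bulk input readings, fewer cells of a type and less RNA per cell cannot be told apart.

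Of 14991 genes tested, 2731 (18.2%) were higher with GFP and 5565 (37.1%) were lower. The median gene stood at -0.52, and 2003 genes were higher and 3851 lower by at least 1 on the log2 scale. At the far ends, 135 genes were higher and 100 lower by at least 3. The split between directions moved with the scaling. Scaling on the median of all probes gave 3627 higher and 1736 lower, with the median gene at 0.07. Cyclic loess gave 3699 and 3638, with the median gene at -0.12, and scaling on spike-in probes gave 4003 and 325, with the median gene at 0.50. Positions of gene families are therefore given relative to the median of all genes, which constant scalings cannot move, and single genes with their own difference. Of 164 genes followed across the scalings, 90 were called higher and all 90 kept that call under the 4 other scalings. Of the 70 called lower, 61 kept the call with median scaling, 66 with cyclic loess, 64 with quantile normalization and 19 with spike-in scaling. Most of the followed genes were picked for large differences in these data, so these counts do not speak for all genes.

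Genes read by several probes that moved together are described first. The set took genes with an official symbol, signal well above background on all 4 arrays and GFP arrays that did not overlap the input arrays. Their kept probes, 2 or more, all passed the threshold the same way, and 512 were higher and 603 lower. Of all 4690 genes with 2 or more kept probes, without the other conditions, every probe was called higher in 587 and lower in 669. Besides Dazl itself (3.78 ± 0.27), Dck, Coq10b and Dr1, the 15 largest were led by Gabpb1, a subunit of the transcription factor GABP. Gabpb1 read -2.11 and -2.30 in the input and 1.78 and 1.34 with GFP, a difference of 3.77 ± 0.22 or 13.6-fold (adjusted p = 0.00148). Cyp51, which removes a methyl group from lanosterol in cholesterol synthesis, read -0.13 and 0.06 against 3.75 and 3.61 (3.71 ± 0.17), and its 3 probes ran from 1.94 to 3.71. Tfdp1, the DNA-binding partner of E2F proteins, read 1.34 and 1.37 against 4.94 and 4.93 (3.58 ± 0.14, 12-fold), with its second probe at 3.31. That both GFP arrays lay above both input arrays in these 3 genes was a condition of the choice.

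The transcription factor Atf1 read 1.37 and 1.47 in the input and 4.77 and 4.50 with GFP (3.21 ± 0.17), and its 3 probes ran from 3.21 to 3.80. Tsc22d3, a leucine-zipper protein induced by glucocorticoids, differed by 3.32 ± 0.32 and its 3 probes ran from 2.95 to 3.45. Pim1, a kinase that favours survival and growth, read -1.15 and -0.86 against 2.26 and 2.34 (3.30 ± 0.23, adjusted p = 0.00148). Its second probe gave a smaller difference of 1.28. Smndc1, a splicing factor of the SMN-related kind, read 1.82 and 2.10 against 4.75 and 5.64 (3.24 ± 0.39). Sec23a, a coat protein of vesicles leaving the endoplasmic reticulum, read -1.23 and -1.38 against 1.81 and 2.03 (3.22 ± 0.19). Tmem128, a membrane protein, differed by 3.47 ± 0.19 and Chic2 by 3.21 ± 0.29. Rap1b, a small GTPase of the Ras family, had the widest GFP pair, 1.66 and 0.12 against -2.17 and -2.97 in the input. Its difference of 3.46 ± 0.73 (adjusted p = 0.0129) lost the call when input replicate 2 was left out (adjusted p = 0.0652).

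The depleted end of the same set, led by Malat1 (-5.06 ± 0.47), included Eif5b, Riok1, Mtif2 and Nasp. Eif5b, the GTPase that joins ribosomal subunits, read 4.66 and 4.63 in the input and 0.85 and 2.28 with GFP (-3.09 ± 0.47, adjusted p = 0.00482). All 5 of its probes were lower, from -3.11 to -0.79. Riok1, a kinase of small-subunit maturation, read 4.68 and 4.57 against 1.49 and 1.85 (-2.96 ± 0.24), and its 3 probes ran from -2.96 to -2.11. Mtif2, the mitochondrial initiation factor, read 2.51 and 3.02 against -0.13 and 0.92 (-2.37 ± 0.44); without input replicate 2 its adjusted p was 0.0504. Nasp, a chaperone of linker and core histones, was among the bright genes, at 6.58 and 6.58 in the input and 4.02 and 3.48 with GFP (-2.83 ± 0.25). That both GFP arrays lay below both input arrays in all 4 genes was a condition of the choice.

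Sf3b3, a subunit of the U2 snRNP, differed by -2.51 ± 0.21 and its probes by -2.51 and -2.15. The helicase Ddx24 read 5.02 and 5.02 against 2.28 and 3.06 (-2.34 ± 0.43). Grn, the precursor of granulins, was the brightest of the group, with 9.39 and 9.48 in the input and 7.52 and 6.42 with GFP (-2.46 ± 0.43), and its second probe gave -0.99. Lgals4, a galectin of epithelia, read 2.40 and 2.38 against -0.46 and -0.30 (-2.77 ± 0.19). Tnni3, the cardiac troponin inhibitor and a marker of heart muscle, read 2.99 and 3.02 against 0.49 and 0.69 (-2.41 ± 0.18). All 8 measured markers of cardiac and smooth muscle were lower, beside 37.1% of all genes. Their summed linear signals were 77.7 and 94.0 in the input and 28.7 and 38.8 with GFP, and their part in the result was not tested. Myl6b, a myosin light chain (-3.01 ± 0.82, adjusted p = 0.0282), and Gbf1, an activator of Arf proteins (-2.80 ± 0.69, adjusted p = 0.0203), had GFP arrays 1.57 and 1.53 apart. The Myl6b call was lost without GFP IP replicate 1 (adjusted p = 0.110), without input replicate 1 (adjusted p = 0.111) and without input replicate 2 (adjusted p = 0.0891). The Gbf1 call was lost without the same arrays (adjusted p = 0.0710, 0.0696 and 0.0879).

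**Figure D1:**
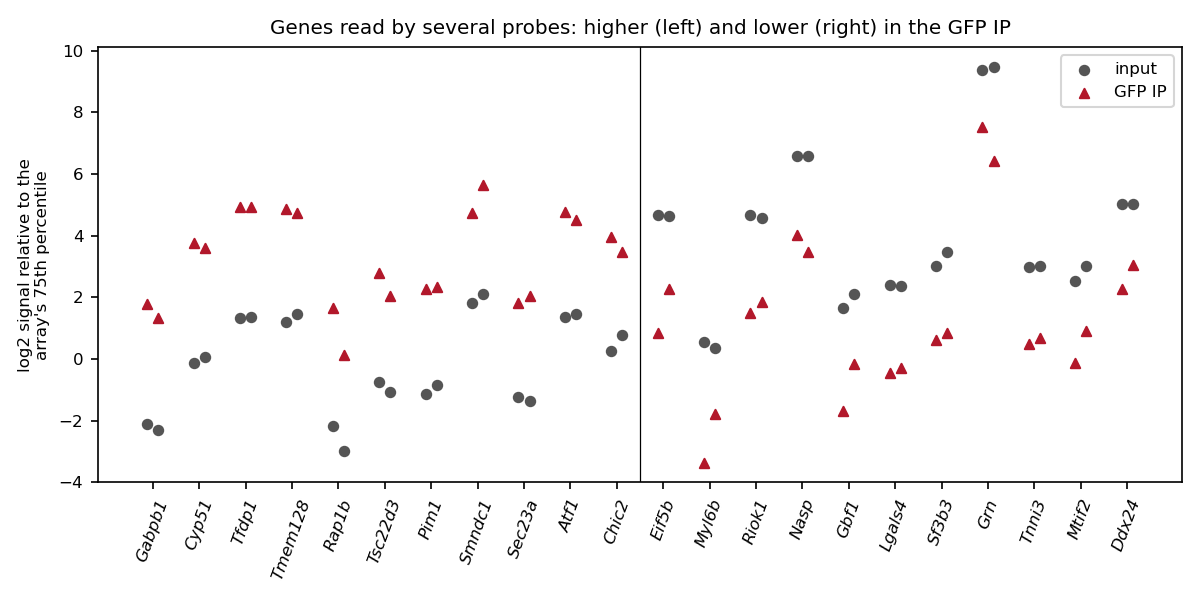
Log2 signal relative to the 75th percentile of the array (y) of genes read by several concordant probes (x), with the 2 input arrays as circles and the 2 GFP IP arrays as triangles. The genes on the left are higher with GFP and those on the right lower; the pairs of triangles for Rap1b, Myl6b and Gbf1 are wide apart.

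Families were read by gene symbol from 102 patterns, of which 101 had at least 10 measured genes; 63 of these had a median above that of all genes and 38 below it. In 16 of them more than 36.4% of the genes were called higher, which is over 2 times the background of 18.2%, and in 12 more than 55.7% were called lower, over 1.5 times the background of 37.1%. No test was made of a family as a whole; counts are to be read against those backgrounds, and patterns overlap in some genes.

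**Figure D2:**
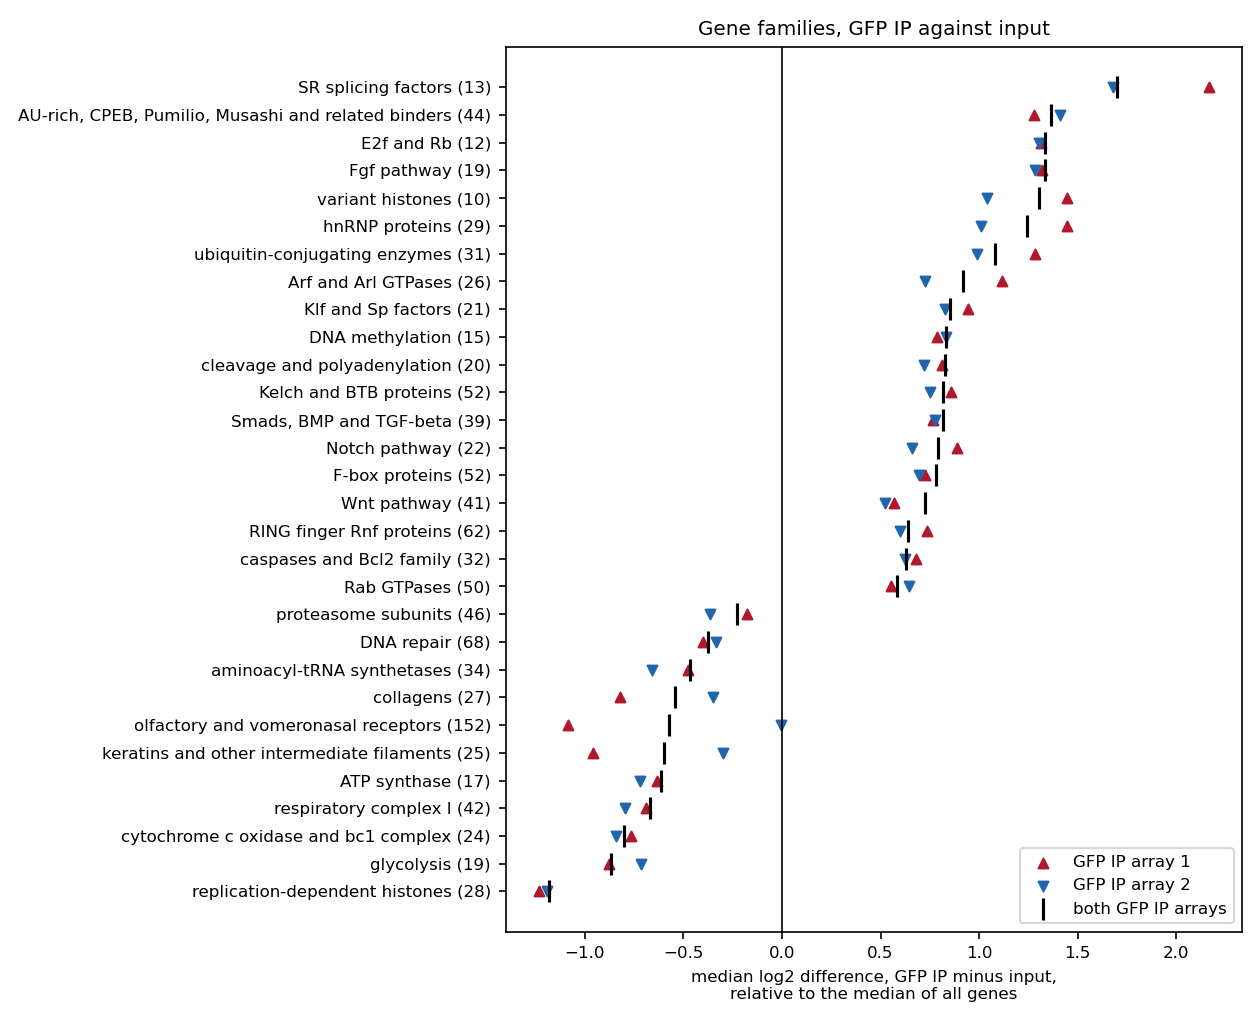
Median log2 difference of 30 families (y, number of measured genes in brackets), GFP IP minus input and relative to the median of all genes (x), for both GFP arrays (bar) and for each GFP array alone (triangles). The order runs from SR splicing factors at 1.70 to replication-dependent histones at -1.18, and only the olfactory and vomeronasal receptors reach 0 on one of the arrays.

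Messages of RNA-binding and splicing proteins stood at the enriched end. SR proteins, which bind exons and guide splice-site choice, had all 13 genes measured, 8 higher and 1 lower, with a median 1.70 above that of all genes. Srsf6 read 0.93 and 0.87 in the input and 3.83 and 2.81 with GFP (2.42 ± 0.39, adjusted p = 0.00587). Srsf1 read 3.13 and 3.11 against 5.49 and 5.03 (2.14 ± 0.24). Tra2b, a related splicing activator, differed by 2.59 ± 0.15, but its second probe gave only 0.06. The lower member was Tra2a (-0.92 ± 0.22), whose call was lost without GFP IP replicate 1 (adjusted p = 0.0576), GFP IP replicate 2 (adjusted p = 0.0667) or input replicate 2 (adjusted p = 0.103), and whose sign turned with spike-in scaling. Of 29 hnRNP genes measured of 31 on the array, 16 were higher and 4 lower (median 1.24). Hnrnpll, a splicing regulator of lymphocytes, read 0.63 and 0.60 against 3.46 and 3.79 (3.01 ± 0.18). Hnrnpc, a binder of uridine tracts, read 1.86 and 1.92 against 4.42 and 4.35 (2.50 ± 0.15). Hnrnpa2b1 was called lower by its brightest probe (-1.71 ± 0.20) while its other probe gave 1.45, so no direction is given for this gene.

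Regulators of message stability and translation that bind AU-rich, Pumilio, CPEB or Musashi sites moved likewise, with 24 of 44 measured genes higher and 5 lower (median 1.37). Elavl1, which stabilises AU-rich messages, read 2.90 and 2.68 in the input and 5.93 and 5.55 with GFP (2.95 ± 0.20, 7.72-fold, adjusted p = 0.00148). Zfp36l1, which promotes decay of such messages, read -0.02 and 0.15 against 2.49 and 2.65 (2.50 ± 0.17). Fmr1, the fragile X protein and a repressor of translation, read -1.63 and -1.33 against 1.57 and 1.48 (adjusted p = 0.00205). Khsrp, another binder of AU-rich messages, fell outside the name pattern of the family and was lower (-3.59, adjusted p = 0.0133). That call was lost without input replicate 1 or 2, where the difference was -3.52 and -3.65. Ybx1, a general packager of messages, was called lower (-1.58 ± 0.43, adjusted p = 0.0284), a call lost under 10 alternatives, among them leaving out any of the 4 arrays (adjusted p from 0.0502 to 0.113).

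Other steps of RNA processing had calls in both directions. Cleavage and polyadenylation factors had 6 higher and 6 lower of 20, or 30.0% each way (median 0.83). Over all genes 18.2% were higher and 37.1% lower. The poly(A) polymerase Papolg (2.18 ± 0.20) and Cpsf6 (2.14 ± 0.17) were higher, and the scaffold Sympk was lower (-2.15 ± 0.20). Deadenylation and decapping genes had 12 higher (40.0%) and 9 lower (30.0%) of 30, with a median of 0.62. Btg3 (2.54 ± 0.16) and Tob1 (1.66 ± 0.22), which recruit the deadenylase, were higher, while its subunit Cnot3 was lower (-1.85 ± 0.25). Tob1 lost its call with normexp background (0.38, adjusted p = 0.0684). Core spliceosome genes had 20 higher and 17 lower of 57 (median 0.24). Lsm1 stood at 1.75 ± 0.16 and Lsm3 at 1.53 ± 0.16 against Sf3b3 at -2.51. DEAD and DEAH box helicases, which unwind RNA, had 8 higher and 24 lower of 52. Ddx3x was the leading higher member (1.80 ± 0.15), and its 3 probes ran from 1.29 to 2.05. Their median was within 0.1 of that of all genes (-0.06).

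Control of cell cycle entry was the next enriched group. E2F factors, their partners and the retinoblastoma proteins, which govern genes of DNA synthesis, had 7 of 12 genes higher and 0 lower (median 1.34), Tfdp1 among them. Rb1, the retinoblastoma protein that restrains E2F, read -1.36 and -1.17 in the input and 0.18 and 0.57 with GFP (1.64 ± 0.21, adjusted p = 0.00329). E2f5, a repressive E2F, read 1.44 and 1.49 against 2.85 and 3.07 (adjusted p = 0.00262), and its second probe gave 2.73. Cyclins had 6 higher and 6 lower of 22 (median 0.25). Ccnd1, the G1 cyclin D1, differed by 2.09 ± 0.27. Of cyclin-dependent kinases and their inhibitors 10 of 28 were higher and 6 lower. The inhibitor Cdkn2d read 2.75 and 2.74 against 5.21 and 4.25 (1.98 ± 0.35). Genes that carry out DNA synthesis leaned to the lower side: 26 of 51 licensing and polymerase genes were lower and 9 higher. The polymerase subunits Pole (-2.14 ± 0.25) and Pold1 (-1.81 ± 0.25) and the ribonucleotide reductase Rrm1 (-1.91 ± 0.24) were lower. Rpa2, a single-strand binding protein, was the leading higher member (2.79 ± 0.21), with its second probe at 2.56.

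DNA repair genes were lower in 40 of 68 and higher in 8 (median -0.37, but 0.18 without the dim filter). The mismatch repair gene Pms1 read 0.70 and 0.80 in the input and -1.46 and -1.18 with GFP (-2.07 ± 0.20). The excision nuclease Ercc4 read 1.38 and 1.34 against -0.63 and -0.81 (-2.08 ± 0.16). In both genes the GFP arrays lay below the input arrays.

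Receptors and transducers of developmental signals leaned to the enriched side. In the fibroblast growth factor pathway 11 of 19 measured genes were higher and 2 lower (median 1.33), out of 34 on the array. The receptor Fgfr1 read -0.89 and -0.83 in the input and 0.95 and 1.10 with GFP (1.88 ± 0.16, adjusted p = 0.00176), while its 4 probes ran from 0.41 to 1.94. The adaptor Frs3 read 0.78 and 0.72 against 2.70 and 2.90 (2.06 ± 0.19). For BMP and TGF-beta signalling 13 of 39 were higher and 8 lower (median 0.82). The TGF-beta receptor Tgfbr1 (-0.58 and -0.57 against 1.89 and 1.84, 2.44 ± 0.19), the activin-type receptor Acvr1 (1.97 ± 0.17) and the ubiquitin ligase Smurf2, which removes receptors (2.62 ± 0.30; weakest of 3 probes 0.45), led the higher side. The procollagen protease Bmp1 was lower (-1.34 ± 0.15), a call lost with median scaling (adjusted p = 0.0677).

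Notch genes were called higher in 6 of 22 and lower in 4 (median 0.79). The ligand Jag1 (2.03 ± 0.18), the nuclear effector Rbpj (-0.42 and -0.08 against 2.29 and 2.15, 2.47 ± 0.21) and the target Hey1 (-1.36 and -1.17 against 1.46 and 1.48, 2.74 ± 0.18) were higher, and Psen2, a subunit of the protease that releases Notch, was lower (-1.55 ± 0.17). Wnt genes were higher in 13 of 41 and lower in 8 (median 0.73); the receptor Fzd5 read -0.47 and -0.21 against 2.14 and 2.32 (2.57 ± 0.17) and the ligand Wnt5b was lower (-1.41 ± 0.19; with median scaling adjusted p = 0.0631). Of the Klf and Sp zinc finger factors 7 of 21 were higher and 0 lower (median 0.85). Klf10, induced by TGF-beta, read 3.73 and 3.73 against 6.20 and 6.31 (2.52 ± 0.18, adjusted p = 0.00148). Klf11 differed by 2.71 ± 0.32 with its brightest probe and by -0.38 with the other. By contrast the large Zfp family was close to all genes, with 37 higher and 94 lower of 226 (median -0.09).

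Enzymes that attach ubiquitin had higher calls above the background share of 18.2%, both among conjugating enzymes and among ligases that choose substrates. Ubiquitin-conjugating enzymes had 15 of 31 genes higher and 2 lower (median 1.08). Ube2j2, which acts at the endoplasmic reticulum, read 1.52 and 1.48 in the input and 4.96 and 5.01 with GFP (3.49 ± 0.17), although its 3 probes ran from -0.11 to 4.12. Ube2w differed by 3.96 ± 0.39 and its second probe by 4.26, with 1 input array not well above background. Ube2o, a large enzyme that joins both steps, was lower (-1.12 ± 0.15), a call lost with median scaling (adjusted p = 0.127). RING finger Rnf genes had 23 of 62 higher and 12 lower (median 0.64). Rnf11 read -1.33 and -1.32 against 2.03 and 2.22 (3.45 ± 0.17, adjusted p = 0.00148).

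F-box genes, whose proteins bring substrates to cullin ligases, were higher in 21 of 52 and lower in 12 (median 0.78). Fbxo8 read -1.26 and -1.34 against 1.46 and 1.58 (2.82 ± 0.15) and Fbxl17 -1.53 and -1.69 against 1.01 and 1.06 (2.64 ± 0.15). Kelch and BTB genes, adaptors of another cullin, were higher in 23 of 52 and lower in 16 (median 0.82). Klhl2 read -2.25 and -2.70 against 1.55 and 0.33 (3.41 ± 0.68, adjusted p = 0.0107), and without input replicate 2 the call was lost (adjusted p = 0.0561). Cullins and their partners were called both ways, 8 higher and 9 lower of 26 (median 0.75), with Cul4a at 1.89 ± 0.16. Of 44 Usp genes, whose products remove ubiquitin, 12 were higher and 16 lower, with Usp36 (-2.09 ± 0.19) and Usp48 (-1.95 ± 0.15) among the lower. Proteasome subunits, which degrade the tagged proteins, were lower in 27 of 46 and higher in 3 (median -0.23, but 0.34 without the dim filter and 0.12 with normexp background). The catalytic subunit Psmb5 read 7.62 and 7.38 against 5.85 and 5.50 (-1.82 ± 0.20), and Psma8, a testis-enriched subunit, was higher (2.03 ± 0.16).

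Histone genes were split by kind. Replication-dependent histones, whose messages end in a stem-loop in place of a poly(A) tail, were lower in 22 of 28 measured genes and higher in 1, with a median -1.18 from that of all genes. H3c1 read 1.31 and 1.12 in the input and -0.97 and -0.99 with GFP (-2.20 ± 0.26, adjusted p = 0.00266). The linker histone H1f3 read 2.76 and 2.66 against 0.44 and 0.61 (-2.19 ± 0.24). Many of these genes are near-identical copies, so a probe may read several. Variant histones, whose messages carry poly(A), were higher in 6 of 10 and lower in 1 (median 1.30). H3f3a, which encodes H3.3, read 5.69 and 5.54 against 6.82 and 6.92 (1.26 ± 0.18), and its 3 probes ran from 1.09 to 1.26. H1f10 was the lower member (-3.47 ± 1.04, adjusted p = 0.0377) with GFP arrays at 0.56 and 3.06. Its second probe gave -0.19, and the call was lost without GFP IP replicate 1 (adjusted p = 0.125), input replicate 1 (adjusted p = 0.114) or input replicate 2 (adjusted p = 0.125).

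Among genes of DNA methylation 5 of 15 were higher and 3 lower (median 0.83). The maintenance enzyme Dnmt1 read 4.19 and 3.92 in the input and 5.68 and 5.39 with GFP (1.48 ± 0.19, adjusted p = 0.00315). The de novo enzyme Dnmt3b (1.13 ± 0.17) and the reader Mbd2 (1.69 ± 0.15) were higher too, while Mbd4, a repair glycosylase, was lower (-1.54 ± 0.15). Chromatin remodelers of the SWI/SNF and CHD kinds were near all genes (8 higher, 18 lower of 51, median -0.06). Smarcd1 was higher (2.54 ± 0.16) and the catalytic subunit Smarca4 (-2.11 ± 0.28) and Chd8 (-2.06 ± 0.17) were lower.

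Genes of cell death were also on the enriched side, 12 higher and 6 lower of 32 (median 0.63). Pmaip1, the BH3-only protein Noxa, read 2.22 and 2.48 in the input and 5.34 and 5.29 with GFP (2.96 ± 0.19, 7.8-fold, adjusted p = 0.00148). Xiap, an inhibitor of caspases, was not well above background on either input array and entered through the groups where it was brighter; it was at least 4.46-fold higher with GFP. That bound sets the GFP mean against the larger, on each input array, of what the probe itself read and the dimmest reading well above background. Birc2, another inhibitor, was lower (-1.42 ± 0.17).

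Arf and Arl genes, which recruit coats and effectors, were higher in 11 of 26 and lower in 6 (median 0.92). Arf4 read 1.41 and 1.36 against 4.40 and 4.69 (3.16 ± 0.18) and Arl8a, of lysosome transport, 2.92 and 3.09 against 6.00 and 5.84 (2.92 ± 0.18). Rab genes were higher in 16 of 50 and lower in 8 (median 0.58). Rab1a, of transport from the endoplasmic reticulum to the Golgi, read 3.56 and 3.43 against 6.42 and 6.43 (2.93 ± 0.16, adjusted p = 0.00148), and both its probes agreed (2.93 and 3.23). Rab2b (2.50 ± 0.16) and Rab6a (2.49 ± 0.15) followed. SNAREs, which fuse vesicles, were called both ways (10 higher, 10 lower of 36, median 0.49). Vamp4 stood at 3.23 ± 0.21 and its weakest probe at 0.95. Coat and adaptor subunits were lower in 36 and higher in 16 of 68; Sec23a was among the higher ones and Copg1 among the lower (-2.14 ± 0.21; weakest of 3 probes -0.04).

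**Figure D3:**
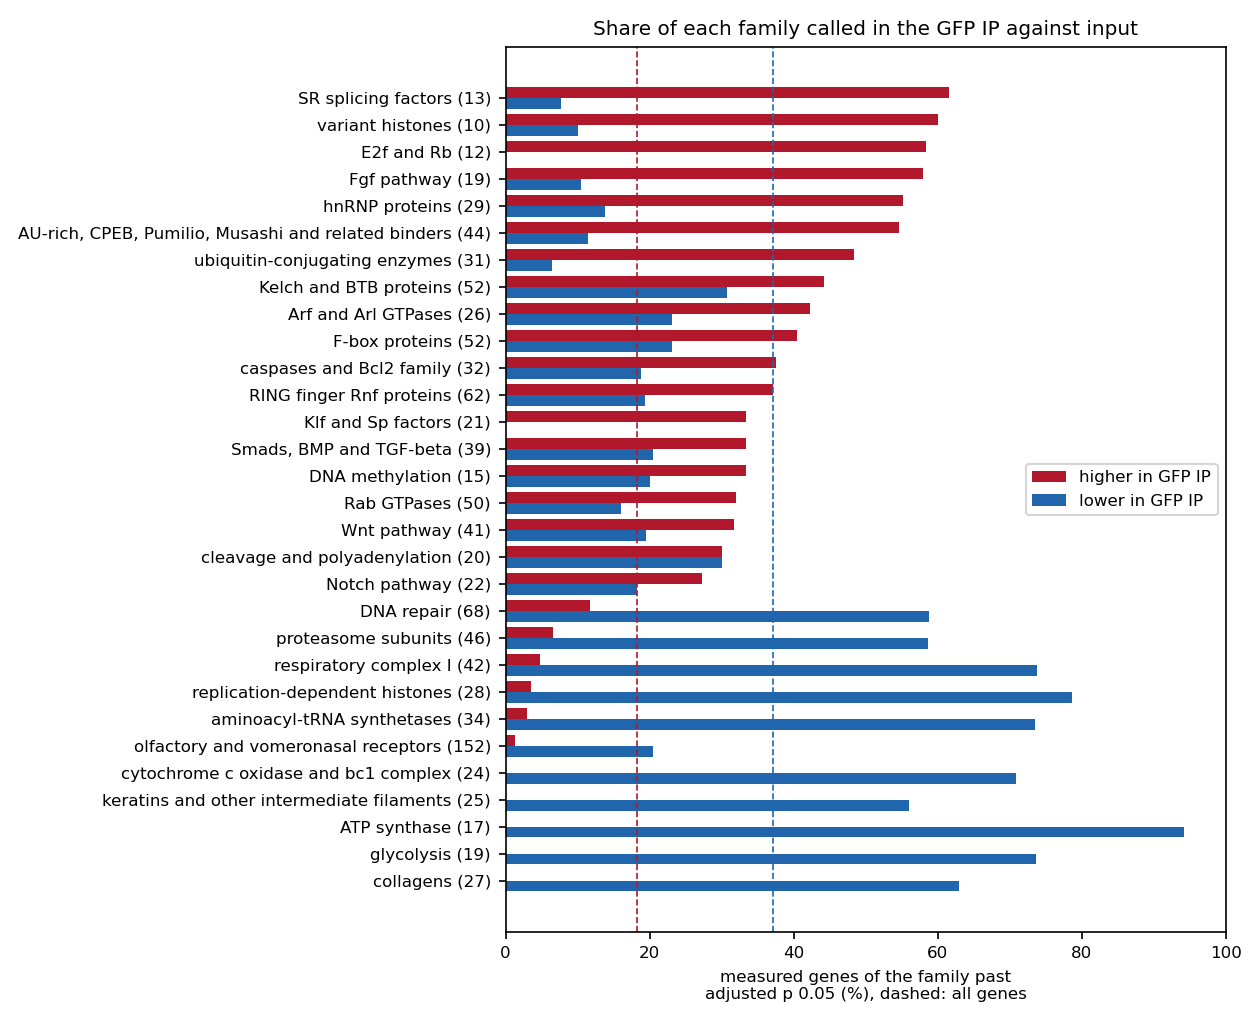
Share of the measured genes of each family called higher (red) or lower (blue) in the GFP IP against input (x, percent), with the number of genes in brackets (y) and dashed lines at 18.2% and 37.1% for all genes. Red bars reach 61.5% for SR splicing factors, and blue bars reach 94.1% for the ATP synthase.

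Messages of energy metabolism lay at the depleted end. Glycolysis genes were lower in 14 of 19 and higher in 0 (median -0.87). Aldoa read 11.18 and 11.06 in the input and 9.44 and 9.32 with GFP (-1.74 ± 0.21, adjusted p = 0.00276), a call lost with quantile normalization (adjusted p = 0.187). Pkm, the pyruvate kinase, read 7.86 and 7.60 against 6.09 and 5.84 (-1.76 ± 0.18), and Eno3, an enolase of muscle, 3.81 and 3.55 against 1.82 and 1.80 (-1.87 ± 0.20). Respiratory complex I was lower in 31 of 42 and higher in 2 (median -0.67). Ndufb2 read 7.18 and 7.02 against 4.85 and 4.93 (-2.21 ± 0.21), and Ndufc2 was the leading exception (6.21 and 6.19 against 8.01 and 8.22, 1.91 ± 0.20).

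Cytochrome c oxidase and bc1 genes were lower in 17 of 24 and higher in 0 (median -0.80), with Cox5b at -1.73 ± 0.24 and Uqcr11 at -1.87 ± 0.22. ATP synthase genes were lower in 16 of 17 and higher in 0 (median -0.61), with Atp5d at -1.67 ± 0.18. Cycle enzymes of the mitochondrial matrix were lower in 12 of 21 and higher in 3, yet their median was near that of all genes (-0.08). Mdh2 was lower (-1.39 ± 0.18; with median scaling adjusted p = 0.0703) and Suclg2, a succinate ligase subunit, was higher (2.29 ± 0.23). The brightest genes as a whole were lower more often in this comparison, as described below. Against the median of genes in the same bin of signal, glycolysis stood at -0.75 and complex I at -0.45. Cytochrome c oxidase and bc1 stood at -0.54 and the ATP synthase at -0.34. The median gene of each of these families lay in the brightest bin, which spans 4.68 to 11.19. Brightness within that bin was not matched, and the part of brightness in these differences was not tested.

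Cholesterol synthesis genes were called both ways, with a median of 0.36. Of 25 genes 7 were higher and 8 lower, with Cyp51 far above and Tm7sf2 (-1.96 ± 0.24), Ebp (-1.79 ± 0.23) and Mvd (-1.47 ± 0.32) below. The Mvd call was lost without input replicate 1 (adjusted p = 0.0817) and with median scaling (adjusted p = 0.143). Aminoacyl-tRNA synthetases, which load amino acids onto tRNA, were lower in 25 of 34 and higher in 1 (median -0.47, but 0.089 without the dim filter). Sars read 8.36 and 8.13 in the input and 5.97 and 5.93 with GFP (-2.29 ± 0.21, adjusted p = 0.00189), and Lars 6.87 and 6.86 against 4.49 and 4.75 (-2.25 ± 0.20; 3 probes from -2.25 to -1.69). Translation initiation and elongation factors were lower in 23 of 53 and higher in 9, with a median close to that of all genes. Eif3c was lower (-2.05 ± 0.21, all 5 probes negative) and Eif1b higher (2.84 ± 0.16). Tyms, which makes thymidylate, was lower (-1.94 ± 0.25, both probes), at the opposite end from Dck, which salvages deoxycytidine.

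Collagens were lower in 17 of 27 measured genes and higher in 0 (median -0.54). Col18a1 read 7.13 and 7.07 in the input and 4.91 and 4.88 with GFP (-2.20 ± 0.17, adjusted p = 0.00162). Col1a2, of connective tissue, read 5.12 and 5.71 against 3.44 and 4.46 (-1.47 ± 0.40, adjusted p = 0.0281), a call lost under 10 alternatives, among them leaving out GFP IP replicate 1 (adjusted p = 0.0807), input replicate 1 (adjusted p = 0.0595) or input replicate 2 (adjusted p = 0.125). Among laminins, integrins and other matrix genes 21 of 43 were lower and 3 higher; Lama5 (-2.26 ± 0.15) and Fbln2 (-2.74 ± 0.25) led. Keratins and other intermediate filaments were lower in 14 of 25 and higher in 0 (median -0.60), with the lamin Lmna at -1.96 ± 0.22 and nestin, Nes, at -2.21 ± 0.30. Other genes of the cell skeleton had lower calls near the background share: tubulins in 6 of 15, kinesins in 11 of 27, dyneins in 11 of 27, and actins, myosins and tropomyosins in 28 of 64. Their higher calls were 1 tubulin, 1 kinesin, 4 dyneins and 10 actins, myosins and tropomyosins. For tubulins and kinesins that is 6.7% and 3.7%, under the background of 18.2%. All 5 measured fibroblast markers were lower, beside 37.1% of all genes. Together they summed to 91.0 and 123 in the input but to 30.7 and 54.3 with GFP (linear signal, in units of the 75th percentile). Pdgfra was not measured. Other marker lists did not all go this way. Of 3 measured neural markers 1 was higher (Tubb3, 1.77 ± 0.28) and 1 lower (Nes). Of 3 measured endothelial and blood markers 1 was higher (Pecam1, 2.28 ± 0.19) and 1 lower (Hba-a1, -1.53 ± 0.48). Of 3 visceral endoderm markers 0 were higher and 1 lower. The part of cell type in these differences was not tested.

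The 30 families in the plot of family medians were picked by hand from the 101 after their values were seen, so their stability is a property of that choice. Over all 101 families, 89 had medians on the same side on both GFP arrays, and 93 kept their side when each gene was set against its own signal bin. Olfactory and vomeronasal receptors had the widest gap between the GFP arrays, at -1.08 on GFP IP replicate 1 and -0.01 on replicate 2. Only 152 of 1036 receptor genes on the array were measured, and their median gene lay in signal bin 2. The lower counts depended on the scaling. With spike-in scaling 1 collagen and 0 genes of glycolysis, complex I, the ATP synthase, cytochrome c oxidase and bc1, the synthetases and replication-dependent histones were called lower. With median scaling the lower counts were 9 in glycolysis, 14 in complex I, 5 in the ATP synthase, 9 in the synthetases, 2 in collagens and 18 in replication-dependent histones. With cyclic loess 11 of glycolysis, 17 of complex I, 7 of the ATP synthase, 17 of the synthetases, 9 of collagens and 15 of replication-dependent histones were called lower. Higher counts were larger, at 22 ubiquitin-conjugating enzymes, 28 AU-rich and related binders and 13 Klf and Sp factors.

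The share of genes called depended on how bright the gene was. Genes were placed in 10 equal bins by their mean signal over the 4 arrays. The share called higher was 12.1% in the dimmest bin and 9.74% in the next, peaked in the fifth (375 of 1499 genes) and fell back to 15.8% in the brightest. The share called lower climbed from 20.2% in the dimmest bin to 53.7% in the brightest. The median difference ran from -0.80 in the second bin through -0.24 in the fifth to -0.79 in the brightest. When genes were placed by input replicate 1 and compared with input replicate 2, so that the placing and the difference shared no input array, the fifth bin stood at -0.35 and the brightest at -0.96, while the dimmest moved to 0.14. Placed by input replicate 2 against input replicate 1, the dimmest bin stood at -0.073, so its sign depended on the input array used. The gap between the fifth and the brightest bin was 0.55 with 75th percentile scaling but 0.019 after quantile normalization and 0.054 after cyclic loess, methods that force the arrays towards a common distribution or level at each brightness. In the dimmest bin 4 of 1500 genes were well above background on all 4 arrays, against all genes from the fifth up.

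**Figure D4:**
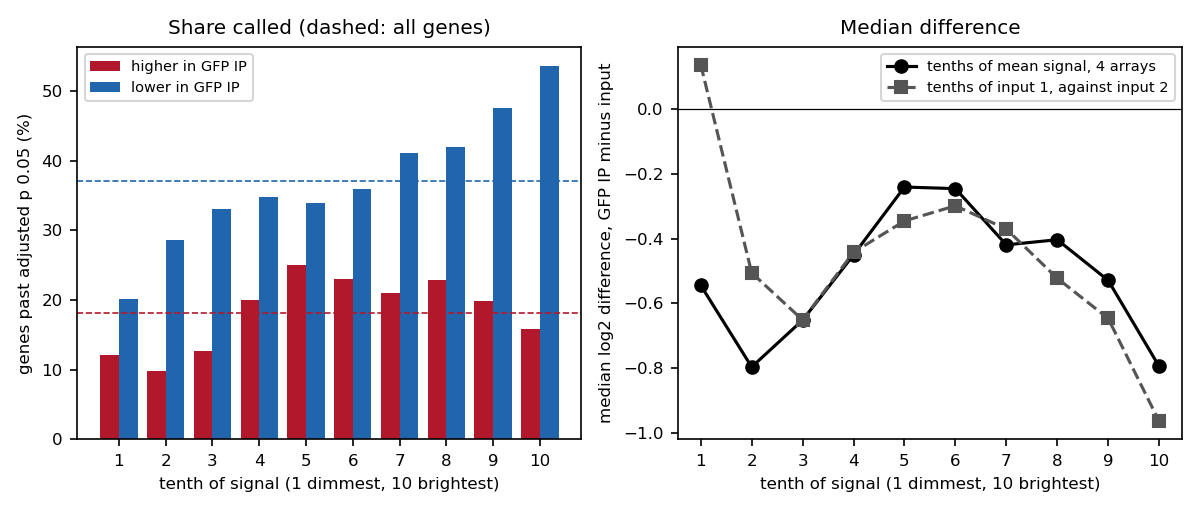
Genes in 10 equal groups by mean signal (x). The left panel shows the percentage called higher or lower in the GFP IP, with dashed lines for all genes, and lower calls reach 53.7% in the brightest bin; the right panel shows the median log2 difference, with genes placed by all 4 arrays (solid) or by an input array not used in the difference (dashed).

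Single genes show the spread within these bins. In the third, Snx16, a sorting nexin of endosomes, read -2.68 and -2.78 in the input and -0.52 and -0.17 with GFP (2.38 ± 0.20), and Nsun3, a mitochondrial tRNA methyltransferase, -2.65 and -2.78 against -0.38 and -0.47 (2.29 ± 0.15). In the middle, Ttc33 read -0.52 and -0.63 against 3.33 and 3.07 (3.78 ± 0.17, adjusted p = 0.00148). Among brighter genes, Fubp3, a single-strand DNA and RNA binder, differed by 3.52 ± 0.26. Eef1e1, of the synthetase complex, read 2.52 and 2.36 against 6.13 and 6.21 (3.74 ± 0.17) and Sertad3, a transcriptional cofactor, 2.19 and 2.28 against 5.83 and 5.52 (3.44 ± 0.18). In the brightest bin Tsen34, a subunit of the tRNA splicing endonuclease, read 4.86 and 4.72 in the input and 8.06 and 7.64 with GFP (3.06 ± 0.20).

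On the depleted side the dimmest named gene was Zfp14 (-2.63 and -2.55 against -4.18 and -4.03, -1.52 ± 0.15). Its call was lost with spike-in scaling (-0.50, adjusted p = 0.561). Ms4a7, a membrane protein of macrophages, read -2.01 and -1.44 against -3.97 and -3.78 (-2.15 ± 0.24) and both its probes were lower. The Ms4a7 call was also lost with spike-in scaling (-1.13, adjusted p = 0.105). The growth factor Ptn (-2.72 ± 0.49) and the mitochondrial carrier Slc25a27 (-0.81 and -0.69 against -3.54 and -3.55, -2.80 ± 0.19) were lower in the third bin. At the bright end stood Nasp and Fbln2. Messages often used as references were spread as well. Actb differed by -0.09 ± 0.32 (adjusted p = 0.821) and Ppia by 0.24 ± 0.15 (adjusted p = 0.229), while Hprt (0.95 ± 0.21) and Tbp (1.43 ± 0.17) were called higher. Ppia was called higher with cyclic loess (0.83, adjusted p = 0.00972), median scaling (0.83, adjusted p = 0.0490), normexp background (0.80, adjusted p = 0.00446) and quantile normalization (0.59, adjusted p = 0.0231). Tbp lost its call with normexp background (0.24, adjusted p = 0.250). Eef1a1 was called higher by its brightest probe (0.72 ± 0.23, adjusted p = 0.0429) and stood at -0.094 when its 2 probes were averaged; leaving out any of the 4 arrays lost the call (adjusted p from 0.113 to 0.184). Hprt lost its call without GFP IP replicate 2 (adjusted p = 0.0533), input replicate 1 (adjusted p = 0.0842) or input replicate 2 (adjusted p = 0.0677). Pabpc1, the message of PABP1, differed by -0.87 ± 0.69 (adjusted p = 0.319) with GFP arrays at 7.05 and 8.60.

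Non-coding transcripts were called higher in a smaller share than coding ones; no test was made of that difference. Of 168 long non-coding RNAs, as classed by RefSeq, 7 (4.17%) were higher and 76 (45.2%) lower, and their median stood -0.55 from that of all genes. It stood at -0.50 against genes of the same signal bin, at -0.74 on GFP IP replicate 1 and at -0.26 on replicate 2. Pseudogenes had 2 higher and 18 lower of 39. Protein-coding genes with a usual name had 19.5% higher and 37.3% lower of 12096. Among 2451 genes without a match in the RefSeq table, 13.3% were higher and 35.8% lower.

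Different probes of a gene did not always tell the same story. Of 4690 genes with at least 2 kept probes, 587 had every probe called higher and 669 every probe called lower. In 298 genes (6.35%) probes were called in opposite directions, and in 653 (13.9%) the differences of the probes spanned more than 2 on the log2 scale. The median span was 0.81. When every probe had to be well above background on all 6 arrays, 160 of 3116 genes had opposite calls. The 12 genes of widest span among the 298 were chosen after their values were seen, and are given as a description.

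In these 12 genes the lowest probe was named by a cDNA clone each time, and it was well above background on both input arrays. On the GFP arrays it was well above background on 0 arrays in 6 genes, on 1 array in 4 and on 2 arrays in 2, so most of these differences have no exact size. Dcaf12, an adaptor of a cullin ligase, and Selenot, a selenoprotein, were measured on all 4 arrays. The low probe of Dcaf12 read -0.73 and -0.35 in the input and -4.17 and -3.69 with GFP (-3.39 ± 0.41), against 2.49 ± 0.17 for its highest probe. Selenot had -2.72 ± 0.33 and 2.89 ± 0.21 for the same pair.

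Ercc8, a factor of transcription-coupled repair, had 2 probes named by RefSeq transcripts at 1.89 ± 0.20 and 2.50 ± 0.17. Its clone probe read -1.58 and -1.28 in the input and was not well above background with GFP. Fbxw2, an F-box protein, had RefSeq probes at 2.25 ± 0.17 and 2.51 ± 0.17, a clone probe not well above background with GFP and another not well above background in the input. Ube2b, a conjugating enzyme needed for spermatogenesis, had 4 RefSeq probes from 0.37 to 2.45 and a clone probe that read -0.14 and -0.12 in the input and was not well above background with GFP. For Mapk8, a stress kinase, 1 probe was well above background in the input alone and 2 with GFP alone. The PABP1 IP minus input difference of the lowest probe was negative in all 12 genes; in Sesn3 it missed the threshold (adjusted p = 0.0642).

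The source of the name did not sort the probes in general. Of 1232 genes read by both kinds, the cDNA clone probes differed from the RefSeq probes by a median of 0.08, were lower by 2 or more in 122 genes and higher by 2 or more in 97. Across all 298 genes with opposite calls, the lowest probe was named by a cDNA clone in 88 and the highest in 88. Where in the transcript each probe lies was not analysed here.

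**Figure D5:**
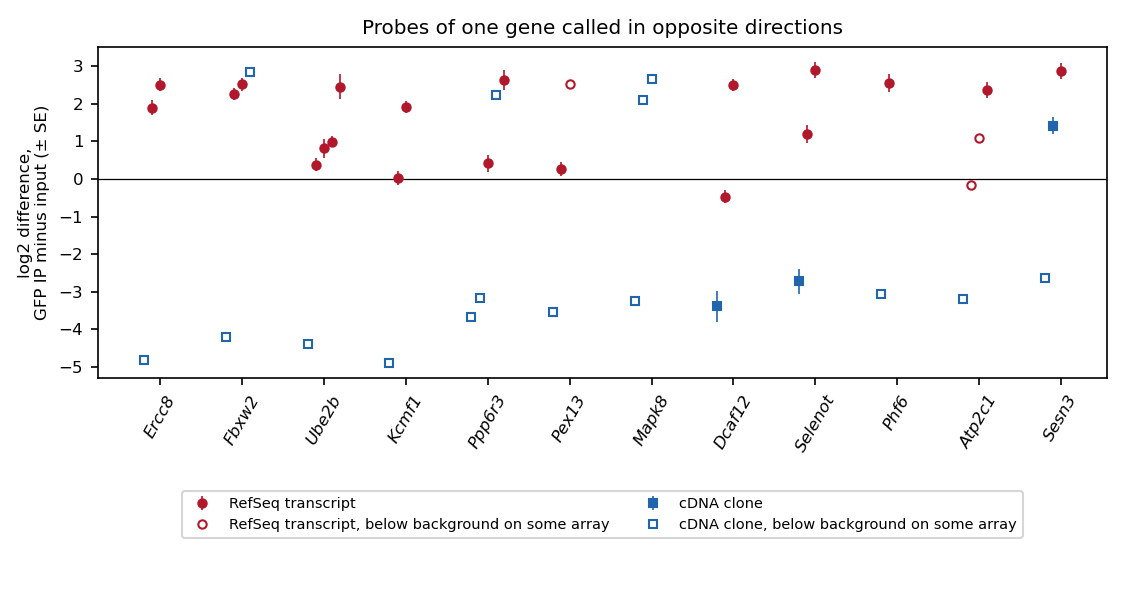
Log2 difference, GFP IP minus input, with its standard error (y), for every kept probe of the 12 genes with the widest span among genes whose probes were called in opposite directions (x); circles are probes named by a RefSeq transcript and squares probes named by a cDNA clone. Open symbols, drawn without an error, are probes not well above background on every array, whose difference is inexact. The lowest point of each gene is a square, and every gene has another probe above 1.

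Set against the PABP1 IP, which recovers RNA through its poly(A) tail binding protein, the GFP IP had 3276 genes higher (21.9%) and 6304 lower (42.1%). This comparison shares the GFP arrays with the one above, so values are given side by side. Cyclic loess gave 4631 higher and 4113 lower, quantile normalization 4001 and 4927, median scaling 3810 and 4128, and spike-in scaling 735 and 10204. GFP IP replicate 1 shared its slide with PABP1 IP replicate 2, and GFP IP replicate 2 with PABP1 IP replicate 1. With the slide as a block 3753 genes were higher and 7828 lower, and within slide 1 the counts were 3166 and 6674. E2F and Rb genes were higher than in the PABP1 IP in 8 of 12 and lower in 0. SR splicing factors were higher in 8 of 13 and lower in 0. AU-rich and related binders were higher in 28 of 44 and lower in 7, and hnRNP genes higher in 13 of 29 and lower in 4. Klf and Sp factors were higher in 12 of 21 and lower in 4, and genes of DNA methylation higher in 9 of 15 and lower in 1. Tfdp1 differed by 2.08 ± 0.14 and Elavl1 by 2.73 ± 0.20 (adjusted p = 0.000494). Gabpb1 differed by 2.73 ± 0.22, Cyp51 by 3.85 ± 0.17 and Dazl by 5.59 ± 0.27.

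Some other families that stood high against input had more lower than higher calls against the PABP1 IP. Ubiquitin-conjugating enzymes were higher in 5 of 31 and lower in 13, Rab genes higher in 11 of 50 and lower in 32, and variant histones higher in 1 of 10 and lower in 3. Rap1b (0.25 ± 0.73, adjusted p = 0.779) and Chic2 (0.60 ± 0.29, adjusted p = 0.12) did not pass the threshold. Families near all genes against input could be high against PABP1: remodelers of the SWI/SNF and CHD kinds were higher in 29 of 51 and lower in 12, and Argonaute and microRNA genes higher in 7 of 13 and lower in 2. The energy genes were low in both comparisons. ATP synthase genes were lower than in the PABP1 IP in 17 of 17, complex I in 40 of 42 and cytochrome c oxidase and bc1 in 23 of 24. Among replication-dependent histones 11 lower and 3 higher genes were called against the PABP1 IP, with a median 0.10 from that of all genes.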

How the data were processed

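RNA of 6 samples in 3 groups of 2 was measured on one-colour arrays. The deposited files come from Agilent Feature Extraction 9.1.3.1, per the file headers, and give each spot a background-subtracted processed intensity; the authors' table of group means was not used. Control spots were left out, spots averaged per probe, log2 taken and the log2 of the array's 75th percentile subtracted. A probe entered if 1 or more groups had it well above background on both arrays (21051 of 41151), and a gene was read by its brightest kept probe. Names came from the files and RefSeq genes (assembly GRCm38.p6): 22941 of 41174 probes were named by accession. No probe sequence was used.

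Limma 3.58.1 in R 4.3.3 fitted all 6 arrays with group as factor (3 residual degrees of freedom), two-sided, with Benjamini-Hochberg adjustment over 14991 genes; it was tested on simulated data. The number of arrays limits the precision.

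The comparison, the families and the gene lists were chosen with earlier results of these data known. Named genes are the 15 largest differences in each direction supported by 2 or more concordant probes, up to 3 leading family members and 1 in the other direction, the 2 largest in each direction per signal bin, and a fixed set; the text gives some of them. The lists of the 15 largest and of the signal bins took only genes whose GFP and input arrays did not overlap. Names that only resemble a family were removed after its values were seen. Replicate numbers were checked as pairs: deviations of same-numbered arrays correlated at 0.20 (input and PABP1), -0.06 (input and GFP) and -0.65 (PABP1 and GFP), so they were not treated as pairs. The PABP1 and GFP arrays that share a slide carry opposite numbers, so a crossed pairing there is the slide, which was fitted as a block. Alternatives covered scaling, background correction, the dim filter, the probe rule, the slide, the samples fitted and leaving out each array.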

Additional observations from a re-analysis of the deposited data

How the results depend on the processing

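For the GFP IP against input (2731 higher, 5565 lower), the lower count was 3638 with cyclic loess, 1736 with median scaling, 325 with spike-in scaling and 12559 without the dim filter. A minimum log2 difference of 0.5 left 1675 higher and 2889 lower, and testing every probe gave 4358 higher. Leaving out 1 array gave 1638 to 2747 higher and 2536 to 5703 lower. Without input replicate 1 the counts were 1638 and 2536, and without input replicate 2 they were 1755 and 3083. For the GFP IP against the PABP1 IP (3276 higher, 6304 lower), the lower count was 4113 with cyclic loess, 4128 with median scaling and 10204 with spike-in scaling. The higher count was 735 with spike-in scaling and 5143 with every probe. Leaving out 1 array gave 2806 to 2973 higher and 5130 to 6123 lower. A replicate block gave 2424 higher and 4671 lower against input and 3007 and 5639 against PABP1, and within slide 1 the counts against input were 2725 and 5841. The gap between the fifth and the brightest signal bin (0.55) was 0.019 with quantile normalization and 0.054 with cyclic loess. Opposite probe calls fell from 298 to 160 genes when probes had to be well above background on all 6 arrays, which tests fewer genes. Over all 101 families, 138 of 2222 medians read under an alternative changed sign, in 40 families, and 74 families kept their side without the dim filter and 79 with normexp background. Without the dim filter proteasome subunits stood at 0.34, DNA repair genes at 0.18, aminoacyl-tRNA synthetases at 0.089, SWI/SNF and CHD remodelers at 0.48, DEAD and DEAH box helicases at 0.47, TCA cycle genes at 0.48 and Zfp genes at 0.30. With normexp background proteasome subunits stood at 0.12, remodelers at 0.16, helicases at 0.11 and TCA cycle genes at 0.36. The remodelers also stood at 0.21 with every probe, 0.13 with the mean of probes, 0.028 with the filter on all 6 arrays, 0.0064 within slide 1 and 0.0071 against the same signal bin. Leaving out 1 array put SWI/SNF and CHD remodelers at -0.098 to 0.012 and helicases at -0.078 to 0.0079. Cytosolic ribosomal proteins turned from -0.60 to 0.10 with quantile normalization. Of the alternatives, 2, the reading against the same signal bin and family names matched by pattern alone, were chosen after seeing the data. Over all 101 families, 61 to 86 had a median above that of all genes (63 as reported), the 86 without the dim filter. Of 160 followed genes with a call 94 kept it under each of the 19 alternatives run on single genes, which leave out testing every probe. Most of the followed genes were picked for large differences in these data, so that count does not speak for all genes. Tra2a stood at 0.10 with spike-in scaling and Eef1a1 at -0.094 with the mean of its probes. The cause of these shifts was not tested. Signal near background limits the dimmest bins.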
